A study of Homo sapiens with 6 samples.

Results

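The mitochondrial ribosome genes are the nuclear protein-coding genes whose symbol begins with MRPL or MRPS and a digit, with DAP3 and PTCD3, and MPV17L2, which acts in the assembly of that ribosome. The MRPL and MRPS genes were chosen by the form of their symbol, and DAP3, PTCD3 and MPV17L2 by name. That MPV17L2 fell was known from earlier results of these data. In all, 81 of the 63140 genes in the count table met the rule. Of these, 51 encode proteins of the large subunit and 29 proteins of the small subunit; these 80 are called structural here. The level filter kept 80 of the 81 genes, among 17427 genes tested. MRPL53, a large-subunit gene, had no read in any library and was not tested. A further 88 symbols of the same form were not protein-coding and were left out.

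The libraries came from HEK293T, an immortalised human embryonic kidney line, in which bulk RNA was sequenced 18 h after transfection. The control group had received the AllStars negative control, a commercial duplex from Qiagen that the labels name an siRNA in some places and a miRNA in others, and the other group a miR-34a duplex. Each group held 3 libraries, labelled biological replicates; nothing more is said of their origin, so the p-values measure only the spread between these libraries. The study set out to learn how the structure of a microRNA paired with its target bears on repression. The microRNA was delivered from outside the cell, into 1 line and read at 1 time, and not made by the cell itself.

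Mitochondria have their own ribosome, which translates the mRNAs of the 13 protein-coding genes of mitochondrial DNA into membrane subunits of the respiratory chain and ATP synthase. All of its proteins are encoded in the nucleus, made in the cytosol and imported, and they join rRNAs made inside the organelle. MPV17L2 is a protein of the inner mitochondrial membrane, related to MPV17, that takes part in building the ribosome. A microRNA guides Argonaute to mRNAs, mainly through a seed near its 5′ end that pairs with matching letters in the 3′ UTR.

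The sequences shown are the microRNA, with its seed (bases 2 to 8) in capitals, and the seed matches of the members that the results turn on, with the letters that match in capitals. The mature microRNA is from RefSeq; the sites are from the transcripts of GENCODE release 29 (GRCh38), 5′ to 3′. An 8mer is CACTGCCA, a 7mer-m8 is CACTGCC, a 7mer-A1 is ACTGCCA and a 6mer is ACTGCC, searched on the mRNA strand.
hsa-miR-34a-5p: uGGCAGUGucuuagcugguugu
MPV17L2 8mer: tctcaagcaccagcccctcaaCACTGCCAt
MRPL10 7mer-m8: tattgtcccctgcctccttggtCACTGCCt
MRPL10 8mer: cccccttggggcacaacctgcCACTGCCAc
MRPL52 7mer-m8: caccaagaacaagctgttagatCACTGCCt
MRPS12 6mer: tttctgctgggacaagacactgtACTGCCc
MRPS25 8mer: cgtacctgctgaccagtcagcCACTGCCAa
MRPL42 8mer: gaatgagcCACTGCCAc
The first 5 sites lie in 4 genes that fell, and the last 2, of the strongest class, in genes that did not pass the test.

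The mRNA for MPV17L2 fell 2.81-fold, while the structural genes as a group moved little. Of the 79 structural genes tested, 8 fell and none rose; the same test called 6.7% of all tested genes lower and 5.38% higher. The 8 were MRPL10, MRPL27, MRPL52 and MRPL55 of the large subunit and MRPS2, MRPS12, MRPS17 and MRPS26 of the small subunit. The largest of these falls, in MRPL10, was 1.43-fold. Genes were called by edgeR's quasi-likelihood test with Benjamini-Hochberg adjustment over all 17427 genes, at an adjusted p under 0.05.

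MPV17L2 lies on chromosome 19 (chr19:18193182-18196948, plus strand, GRCh38; ENSG00000254858). The control libraries held 30.7, 34.9 and 30.6 CPM (counts scaled to the library size), and the libraries with miR-34a 13.3, 10.9 and 10.2 CPM. Every miR-34a library lay below every control library, and the gap between the groups was wider than the spread within either. The mean fell from 32.1 ± 2.47 to 11.5 ± 1.61 CPM (SD, n = 3 per group), which is 2.81-fold lower, or 35.6% of control. The log2 fold change was -1.49 ± 0.10 (SE), with an adjusted p of 2.0e-10 by edgeR's quasi-likelihood test. It was the 13th lowest log2 fold change of the 17427 genes. In a bulk sample, fewer cells of a type and less RNA per cell cannot be told apart.

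The 8mer of MPV17L2 is in its last exon, exon 5 of 5, at chr19:18196373-18196380, and starts at nt 318 of the 3′ UTR. The gene has 1 annotated coding transcript. The lowest-energy duplex predicted for the printed site and the microRNA was -24.8 kcal/mol, with 17 bases of the microRNA paired. Exons of MPV17L2 share 7.73% of their length with RAB3A on the opposite strand, a gene at 9.16 CPM in the control whose log2 fold change of 0.26 did not pass the test (adjusted p = 0.17, edgeR). The libraries did not mark strand, so reads in the shared stretch cannot be assigned to either gene by strand.

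No other gene of the MPV17 family passed the test. MPV17, an inner-membrane protein whose loss depletes mitochondrial DNA, was at 59.7, 58.3 and 56.0 CPM in the control and 56.3, 58.4 and 59.3 CPM in the miR-34a libraries. PXMP2, a channel protein of the peroxisomal membrane, averaged 6.82 ± 1.03 and 7.02 ± 0.99 CPM (SD, n = 3). Their log2 fold changes were 0.00 ± 0.07 and 0.03 ± 0.15, with adjusted p of 1 and 0.94 by edgeR. Neither has a seed match in the 3′ UTR searched. MPV17L had no read in any library.

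**Figure D1:**
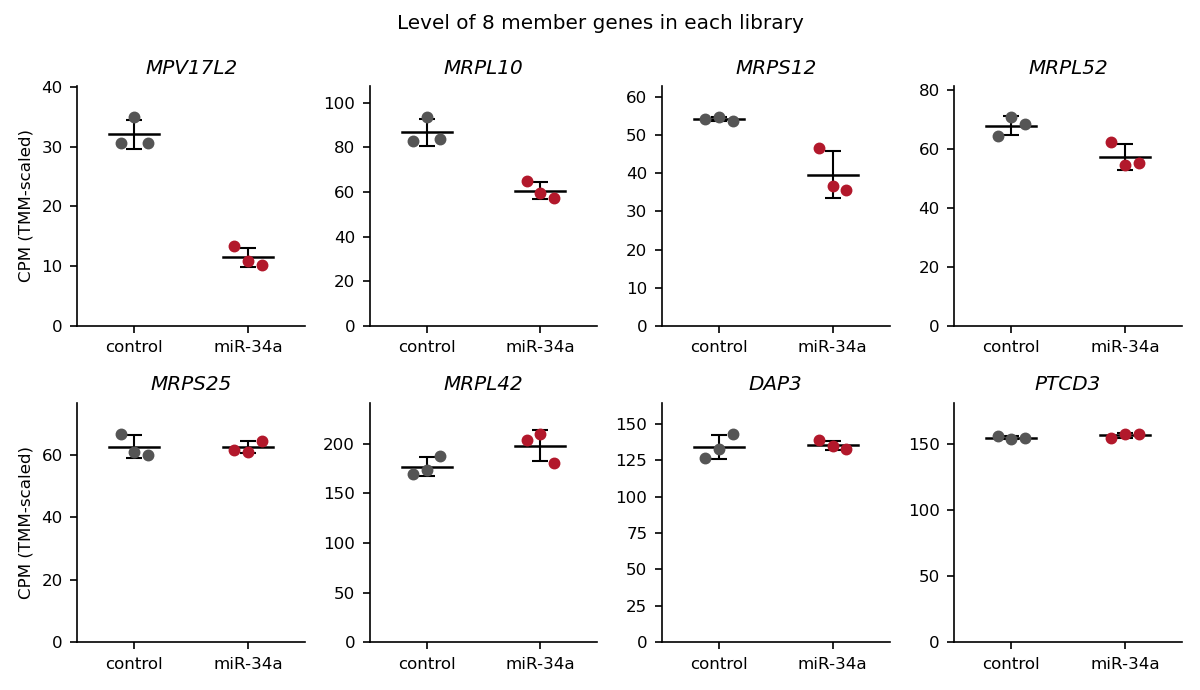
Level of 8 member genes in CPM (vertical axis, from 0) in each control and miR-34a library; points are libraries, bars the mean and SD of 3. The miR-34a points of MPV17L2, MRPL10, MRPS12 and MRPL52 lie below all control points, while those of MRPS25, MRPL42, DAP3 and PTCD3 overlap the control.

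Among the structural genes, MRPL10 changed most. It encodes the protein at the base of the large subunit's stalk, the flexible arm that holds MRPL12 and receives translation factors. Control libraries were at 82.7, 93.4 and 83.8 CPM, and miR-34a libraries at 64.7, 59.6 and 57.4 CPM. The groups did not overlap. The log2 fold change was -0.52 ± 0.07 with an adjusted p of 1.9e-05 by edgeR. The gene (chr17:47823272-47831534, minus strand; ENSG00000159111) has a 7mer-m8 and an 8mer in its last exon, 303 and 357 nt after the stop codon, and both are in all 3 of its annotated coding transcripts. Their predicted duplexes were -20.7 and -22.7 kcal/mol.

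MRPS12 encodes a conserved small-subunit protein of the decoding centre, the place where codon meets anticodon. It was at 54.2, 54.7 and 53.8 CPM in the controls, against 46.6, 36.7 and 35.7 CPM with miR-34a. The groups did not overlap, and the 3 control values were much closer together than the miR-34a values, of which replicate 1 was nearest to the control. The log2 fold change was -0.45 ± 0.09 with an adjusted p of 6.3e-04 by edgeR. The gene (chr19:38930548-38933162, plus strand) has only a 6mer in its 3′ UTR. It shares 16.3% of its exonic length with SARS2, the mitochondrial seryl-tRNA synthetase gene on the opposite strand, which was at 9.48 CPM and did not pass the test (log2 fold change -0.08, adjusted p = 0.75, edgeR).

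The other 6 structural genes that fell did so by less, and their calls were less firm. MRPS2, a conserved small-subunit protein, was at 77.2, 88.4 and 82.9 CPM in the control and 72.8, 68.1 and 63.9 CPM with miR-34a. MRPL27, a conserved protein near the peptidyl transferase centre, was at 61.4, 71.7 and 71.8 CPM against 60.5, 57.8 and 51.2 CPM. MRPL52, a large-subunit protein found in mitochondria but not in bacteria, was at 64.4, 70.7 and 68.3 CPM against 62.1, 54.5 and 55.0 CPM. In these 3 genes the groups did not overlap, but miR-34a replicate 1 lay close under the lowest control library in MRPL27 and MRPL52. Their log2 fold changes were -0.28, -0.28 and -0.25, with adjusted p of 0.013, 0.022 and 0.028.

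In the remaining 3 the groups overlapped. MRPL55, another large-subunit protein without a bacterial counterpart, was at 79.3, 95.2 and 85.8 CPM in the control and 79.6, 67.9 and 63.3 CPM with miR-34a. MRPS17, a conserved protein of the small subunit, was at 11.8, 15.1 and 13.9 CPM against 12, 9.35 and 10.5 CPM. MRPS26, a mitochondria-specific small-subunit protein, was at 83.3, 106 and 100 CPM against 85.2, 77.9 and 82.2 CPM. In each of them the highest miR-34a library was replicate 1 and lay just above the lowest control library, replicate 1. Their log2 fold changes were -0.31, -0.36 and -0.24, with adjusted p by edgeR of 0.015 and 0.044 for the first pair and a value just under 0.05 for MRPS26.

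How many structural genes fell depended on single libraries. The count was 14 without control replicate 1, but 3 without control replicate 2, 4 without control replicate 3, and 2 without miR-34a replicate 2 or replicate 3. MRPL10 and MRPS12 were called in each of those fits; the other 6 each lost their call in at least 3 of the 6 fits that left out 1 library. Just outside the threshold were MRPL4, MRPL2 and MRPS34, with log2 fold changes of -0.21, -0.40 and -0.22 and adjusted p of 0.054, 0.056 and 0.058.

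Read against the background, the 8 of 79 are 10.1% of the structural genes. The same test called 8.42% of the 13499 protein-coding genes tested lower. Among genes of log2 CPM of 3 or more, where most members lie, 8 of 74 structural genes were lower (10.8%), and 10.1% of all tested genes. For higher calls, the structural genes gave 0 of 79, beside 6.62% of protein-coding genes. At an unadjusted p under 0.05, 20 structural genes were lower and 4 higher. Shares of all tested or protein-coding genes at this unadjusted threshold were not taken. Whether these counts exceed the background was therefore not tested. Groups that did not overlap were seen for 10 structural genes in the lower direction (12.7%) and 4 in the higher (5.06%), against 14.2% and 13.1% of all tested genes and 16.7% and 15% of protein-coding ones. The 4 were MRPL17, MRPL19, MRPS10 and MRPS27, with log2 fold changes of 0.18, 0.19, 0.20 and 0.11, and none passed the test.

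The structural genes sat slightly below zero as a group. Their log2 fold changes ran from -0.52 to 0.20 with a median of -0.057, beside -0.004 over all tested genes. Of the 79, 56 were negative (70.9%), beside 50.7% of all tested genes and 51.6% of protein-coding ones. All but 7 structural genes lay within 0.25 of zero. Leaving out 1 library at a time gave structural medians from -0.091 to -0.009. The median was -0.010 without control replicate 3 and -0.009 without miR-34a replicate 3. By library, the median deviation of the structural genes from their control mean (log2) was -0.08, 0.01 and 0.06 in the control and 0.01, -0.02 and -0.14 with miR-34a. The groups overlapped, and the lowest value was that of miR-34a replicate 3. Structural genes took 0.550%, 0.594% and 0.594% of all counts in the control libraries and 0.584%, 0.565% and 0.537% in the miR-34a libraries, which also overlap.

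**Figure D2:**
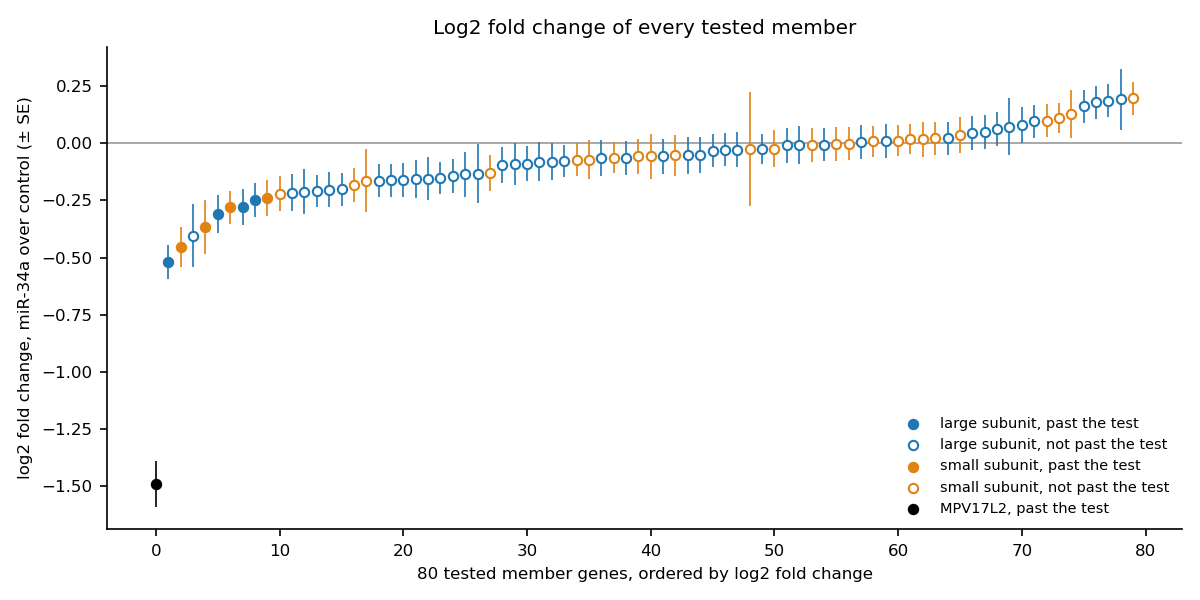
Log2 fold change, miR-34a over control, of the 80 tested members in rank order, with the SE as bars; filled points passed the test. MPV17L2 stands apart at -1.49, and the structural genes run from -0.52 to 0.20.

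The calls were shared between the subunits. In the large subunit 4 of 50 genes fell (8%), with a median log2 fold change of -0.071. In the small subunit 4 of 29 fell (13.8%), with a median of -0.025. The shares lower were 6.7% of all tested genes and 8.42% of protein-coding ones. The ratio of large- to small-subunit counts ran from 1.67 to 1.71 in the control libraries and from 1.64 to 1.67 in the miR-34a libraries, whose highest value lay just below the lowest control value. Split by origin, 5 of 46 genes for proteins with a bacterial counterpart fell (10.9%, median -0.071), as did 3 of 33 others (9.09%, median -0.023). The differences between these groups were not tested.

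DAP3 and PTCD3, the small-subunit proteins that do not carry the family symbol, did not pass the test. DAP3, a GTP-binding protein first described in cell death, was at 126, 133 and 143 CPM in the control and 139, 134 and 133 CPM with miR-34a. PTCD3, an RNA-binding protein with pentatricopeptide repeats, was at 156, 154 and 154 CPM against 154, 158 and 157 CPM. The groups overlapped for both, and the log2 fold changes were 0.01 ± 0.07 and 0.02 ± 0.06, with adjusted p of 0.94 and 0.91 by edgeR. PTCD3 has a 6mer in its 3′ UTR. MRPS36, which is also a subunit of the 2-oxoglutarate dehydrogenase complex, had a log2 fold change of -0.05, and MRPL58, which can also release stalled peptides, one of -0.01.

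Seed matches were searched in the 3′ UTR of 1 transcript per gene, the one with the longest coding sequence. Of the 76 tested members with a 3′ UTR of at least 50 nt, 12 (15.8%) held a 7mer or an 8mer, beside 20.9% of 12896 tested genes. Member 3′ UTRs were short, with a median of 358 nt beside 973 nt. The strongest class, the 8mer, was found in MPV17L2, MRPL10, MRPL42 and MRPS25. A 7mer-m8 was the strongest match in MRPL30, MRPL33 and MRPL52, and a 7mer-A1 in MRPL19, MRPL47, MRPL50, MRPS7 and MRPS14. In all, 3 of the 12 fell (25%), beside 19.4% of the 2695 tested genes with such a match. Without MPV17L2, whose fall was known from earlier results of these data, 2 of 11 fell (18.2%). The 3 that fell carry CACTGCC, as do MRPL30, MRPL33, MRPL42 and MRPS25, which did not pass the test.

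The 8mer genes split. MPV17L2 and MRPL10 fell, as given above. MRPS25, a mitochondria-specific small-subunit protein, was at 66.8, 60.9 and 60.1 CPM in the control and 61.7, 61.1 and 64.6 CPM with miR-34a, and its log2 fold change was -0.00 ± 0.07 (adjusted p = 0.99, edgeR). MRPL42, a mitochondria-specific large-subunit protein, was at 170, 174 and 188 CPM against 204, 210 and 181 CPM, with a log2 fold change of 0.16 ± 0.07 (adjusted p = 0.16, edgeR). The groups overlapped for both. The predicted duplex of the MRPS25 site was -25.2 kcal/mol, about as low as that of MPV17L2, and that of the MRPL42 site -18.4 kcal/mol. The MRPL42 window was cut at the start of the 3′ UTR and held 17 nt, where those of MRPS25 and MPV17L2 held 30 nt. Its energy therefore cannot be compared with theirs. The annotation places the MRPL42 site in 1 of 5 coding transcripts, 9 nt after the stop codon, and the MRPS25 site in 2 of 3; gene counts do not say which transcripts these cells made.

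The members with weaker matches also split. MRPL52 fell, and its 7mer-m8 is in 5 of 11 coding transcripts. MRPL30 and MRPL33, the other members with a 7mer-m8, had log2 fold changes of 0.02 and -0.08. None of the 5 members with a 7mer-A1 passed the test, and their values ran from -0.06 in MRPS7 to 0.19 in MRPL19. MRPL47, MRPL50 and MRPS14 had values of -0.01, 0.05 and 0.02. Of the 3 members whose strongest match was a 6mer, MRPS12 fell, and PTCD3 and MRPS11 did not pass the test. Inside coding sequence, MRPL16 and MRPL44 each hold an 8mer; their log2 fold changes were -0.16 and -0.15, with adjusted p of 0.17 and 0.18.

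Members without any seed match in the 3′ UTR were also among those that fell. Of 61 such members, 5 fell (8.20%), with a median log2 fold change of -0.063: MRPL27, MRPL55, MRPS2, MRPS17 and MRPS26. Of 8907 tested genes without a match, 4.88% fell, with a median of 0.012. Among all 675 genes with an 8mer, 27.7% fell and the median was -0.14.

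**Figure D3:**
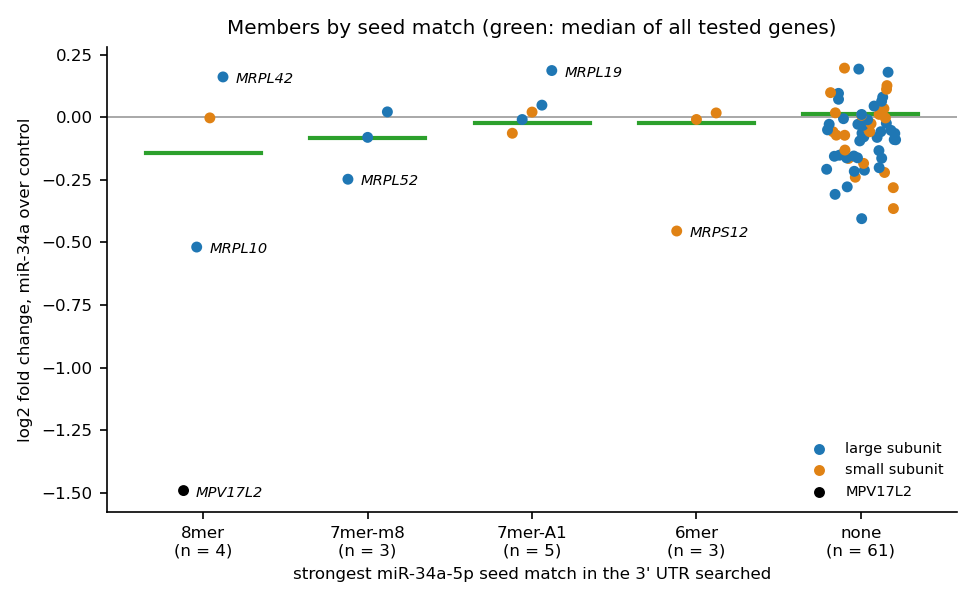
Log2 fold change, miR-34a over control, of 76 members grouped by the strongest seed match in the 3′ UTR (horizontal axis); points are genes, green lines the median of all tested genes of that class. MPV17L2 (-1.49) and MRPL10 (-0.52) lie far below the 8mer median of -0.14, while MRPL42 (0.16) lies above it.

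The log2 fold change of the structural genes moved with the GC content of their transcripts. Across the 79 genes Spearman's rho was -0.46, beside -0.39 across 13473 protein-coding genes; genes are not independent replicates, and all points share the same 6 libraries. Ordered by GC content into 3 groups of like size, 0 of 27 genes fell in the lowest, 3 of 26 in the middle and 5 of 26 in the highest. The medians were -0.009, -0.028 and -0.15. All protein-coding genes of the same GC ranges had medians of 0.078, -0.007 and -0.10, with 4.05%, 7.15% and 13.4% lower. The part of GC content in the calls was not tested.

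**Figure D4:**
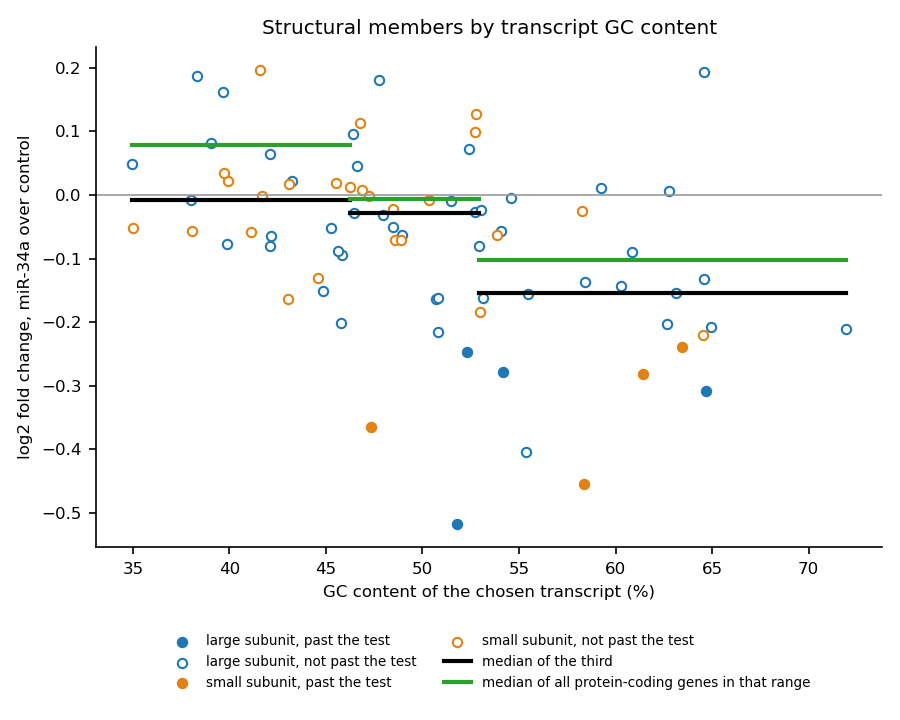
Log2 fold change, miR-34a over control, of 79 structural genes against the GC content of the transcript in percent; filled points passed the test, and lines mark the medians of the 3 GC groups, black for structural genes and green for all protein-coding genes. The black medians fall from -0.009 to -0.15 and the green from 0.078 to -0.10.

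Compared per length, the structural genes were expressed within a broad band. TPM, a level per length computed from the counts and each gene's exonic length, had a median of 96.3 over the 79 tested genes in the control, and 66 of them lay between 20 and 300 TPM. The highest were MRPL37, a mitochondria-specific protein of the large subunit, at 412 TPM, and the small-subunit proteins MRPS34 and MRPS26 at 376 and 324 TPM. MRPL37 was at 270, 281 and 282 CPM in the control and 274, 278 and 267 CPM with miR-34a, and its log2 fold change was -0.02. MPV17L2, at 56.9 TPM in the control and 20.7 TPM with miR-34a, lay below the structural median in both groups.

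The lowest tested were MRPS24 at 2.27 TPM, MRPL46 at 4.42 TPM and MRPL38 at 7.01 TPM. None of them passed the test, and their log2 fold changes were -0.03 ± 0.25, 0.07 ± 0.13 and 0.19 ± 0.13. MRPS24 shares 23.2% of its exonic length with other genes, MRPL46 11.3% and MRPL38 41.1%, and MRPL53, which had no read, shares 45.2% with CCDC142, at 34.3 CPM in the control. MRPL12 shares 68.2% and was at 89.0 TPM; the part of shared exons in these levels was not tested. In all, 34 members overlap the exons of another tested gene, 27 of them a gene on the opposite strand.

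In promoters, the ETS and YY1 motifs were found in a larger share of members than of all protein-coding genes. The window runs from 250 nt before to 50 nt after a RefSeq start (GRCh38.p14), and 72 of the 81 members matched a promoter. The ETS motif CCGGAAG was found on either strand in 30 of them (41.7%), beside 16.5% of 15843 protein-coding genes. The YY1 motif AAGATGGC was found in 22 (30.6%), beside 4.66%. The NRF1 motif GCGCATGC was found in 6 (8.33%), beside 4.89%, too few genes to set the shares apart. The GC box GGGCGG was found in 45 (62.5%), beside 64.3%, and the cyclic AMP response element TGACGTCA in 1 (1.39%), beside 3.0%. A gene counted where any of its starts held the motif, and a match describes letters only.

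Genes that fell were found with and without the ETS and the YY1 motif. Of 29 tested structural genes with the ETS motif 4 fell, and of 41 without it 3. With the YY1 motif 2 of 22 fell, and without it 5 of 48. The same test called 6.7% of all tested genes and 8.42% of protein-coding ones lower. MRPL10, which also fell, matched no promoter and is in none of these counts. The difference between the shares with and without a motif was not tested.

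Other genes of mitochondrial translation were read beside the members. Of 26 assembly and rRNA-modifying factors, 3 fell (11.5%, beside 6.7% of all tested and 8.42% of protein-coding genes) and none rose, with a median log2 fold change of -0.035. MRM1, an rRNA methyltransferase, was at 15.7, 13.0 and 12.5 CPM in the control and 10.6, 9.01 and 10.9 CPM with miR-34a. The groups did not overlap, and the log2 fold change was -0.43 ± 0.12 (adjusted p = 0.016, edgeR). RCC1L, which acts with assembly GTPases, and MRM3, another rRNA methyltransferase, had log2 fold changes of -0.22 and -0.25, with adjusted p of 0.039 and 0.049. RCC1L holds a 7mer-m8 in its 3′ UTR, and MRM1 and MRM3 have no match there. MRM1 lost its call when control replicate 1 was left out (adjusted p = 0.075, edgeR), and again when miR-34a replicate 2 was (0.11). RCC1L and MRM3 lost theirs without replicate 2 or 3 of either group, with adjusted p from 0.11 to 0.24 in those fits.

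Among 19 translation factors and RNA-processing proteins, HSD17B10, a subunit of mitochondrial RNase P, was the 1 that fell. That is 5.26% of the list, beside 6.7% of all tested and 8.42% of protein-coding genes. The mean of HSD17B10 went from 116 ± 11.2 to 84.8 ± 8.32 CPM (SD, n = 3). Its log2 fold change was -0.45 ± 0.08, with an adjusted p of 3.1e-04 by edgeR. None of 22 genes for the charging of mitochondrial tRNAs passed the test, and none of 10 genes for mitochondrial transcription and DNA upkeep. The 22 were aminoacyl-tRNA synthetases and the amidotransferase subunits QRSL1, GATB and GATC. Of the synthetases, GARS1 and KARS1 also serve the cytosol. In these lists the most expressed genes, IARS2 and GARS1 and SSBP1 and TFAM, had log2 fold changes of 0.11, 0.02, -0.06 and 0.03. Of 9 regulators of mitochondrial biogenesis, MYC fell, by 0.38 on the log2 scale (adjusted p = 2.4e-04, edgeR). That is 11.1% of this list, beside the same 6.7% and 8.42%.

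The mitoribosomal proteins with other symbols moved little. None of AURKAIP1, CHCHD1 and GADD45GIP1 passed the test, and AURKAIP1 and GADD45GIP1 had log2 fold changes of -0.13 and -0.15. Without control replicate 1 GADD45GIP1 passed, at -0.26 (adjusted p = 0.026, edgeR). None of the 13 mitochondrially encoded protein-coding genes passed the test, with a median log2 fold change of 0.088 beside -0.004 over all tested genes. MT-CO1 and MT-ND4, the highest by average log2 CPM over the 6 libraries, had values of 0.17 and 0.14. MT-CO1 ran from 0.027 without control replicate 2 to 0.30 without control replicate 1, where it passed the test (adjusted p = 0.019, edgeR), as it also did with no filter on low counts (0.037). The rRNAs of the small and large mitochondrial subunits, MT-RNR1 and MT-RNR2, had log2 fold changes of 0.18 ± 0.11 and 0.16 ± 0.10, with adjusted p of 0.32 and 0.37 by edgeR. Of 73 cytosolic ribosomal protein genes 12 fell (16.4%, beside 6.7% of all tested and 8.42% of protein-coding genes) and none rose, with a median of -0.16. RPS3 (-0.27), RPL38 (-0.27) and RPS12 (-0.29) had the lowest adjusted p. Without control replicate 3 or miR-34a replicate 3 none of these 3 passed the test, and RPS12 also missed it without replicate 2 of either group.

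**Figure D5:**
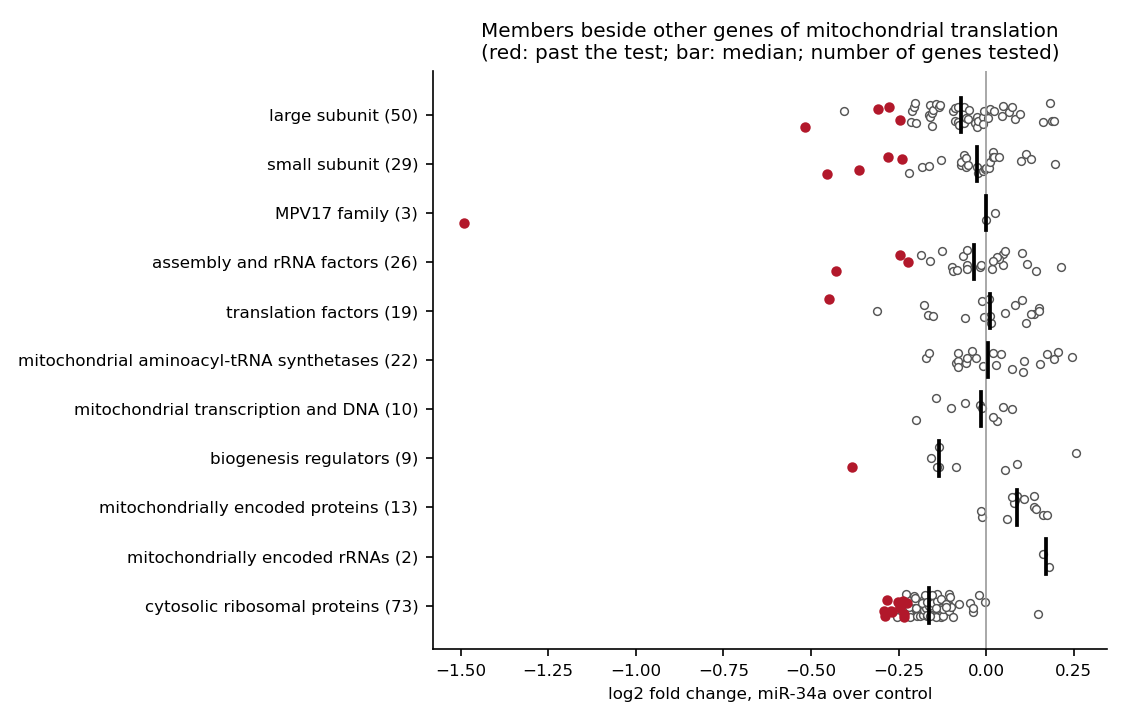
Log2 fold change, miR-34a over control (horizontal axis), of both subunits, the MPV17 family and other gene groups (rows, with the number of genes tested); red points passed the test and the bar is the median. Structural medians of -0.071 and -0.025 lie between that of the mitochondrially encoded proteins at 0.088 and that of the cytosolic ribosomal proteins at -0.16.

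The libraries held 24728662 to 36650331 counts, and the normalization factors ran from 0.981 to 1.016. The 6 markers chosen for the line were read in every library and summed to 550 to 602 CPM in the control and 496 to 522 CPM with miR-34a, with no overlap. Of them NEFL and NEFM fell, with log2 fold changes of -0.32 and -0.22 (adjusted p = 0.0041 and 0.037, edgeR), and VIM, CDH2, PAX2 and LHX1 did not pass the test. The 10 markers of other cells summed to 25.5 to 31.6 CPM in the control and 25.5 to 27.9 CPM with miR-34a, with CD3E and DCN at 0. Most of that sum was COL1A1. Mitochondrially encoded mRNAs took 2.62% to 3.80% of counts in the control and 3.14% to 4.34% with miR-34a. Cytosolic ribosomal protein genes took 5.57% to 6.64% and 5.39% to 5.83%.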

How the data were processed

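The authors deposited 1 table of unnormalized read counts, with Ensembl genes in rows and a column for each library. The submitters' processing notes list, without saying what each did, the build GRCh38, STAR 2.7.11a, Subread 2.0.3, featureCounts and edgeR 3.42.4. Which annotation release, strand setting and handling of multiply mapped reads were used is not given in the sources used here. Per the labels' protocols, libraries were made with the TruSeq RNA v2 kit, which does not mark strand.

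The members and gene lists were chosen with earlier results of these data known. Genes passed edgeR's filterByExpr (minimum count 10, minimum total 15). TMM factors scaled the counts. The test was edgeR's quasi-likelihood test (version 4.0.16, in R 4.3.3) on group alone, with Benjamini-Hochberg adjustment over all 17427 genes. The test was also run on simulated data, with the same spread for all genes and changes larger than that of any structural gene. That run does not say how well falls as small as theirs are found. CPM and TPM are computed here. An SE is the log2 fold change over the root of its F statistic.

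Symbols, coordinates, transcripts and exon overlaps came from GENCODE release 29 (GRCh38), in which no MANE tags were found, so the transcript with the longest coding sequence was used. Duplex energies came from RNAduplex 2.7.2 on the printed windows, a description added after the data were seen. Promoters came from RefSeq (GRCh38.p14). The genes named are MPV17L2 and its family, DAP3, PTCD3, all structural genes past the threshold, the 3 highest and 3 lowest per length, all with a 7mer or 8mer, and up to 3 per list past the threshold or else the 2 most expressed; others named were chosen after their values were seen. Alternatives were other scalings and filters, DESeq2 1.42.0, the replicate number as a block, and leaving out each library.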

Additional observations from a re-analysis of the deposited data

How the results depend on the processing

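MPV17L2, MRPL10 and MRPS12 kept their direction and their call under all 12 alternatives; leaving out 1 library at a time gave MPV17L2 a log2 fold change from -1.60 to -1.41. The number of structural genes lower was 8, and 7 with DESeq2 size factors in edgeR, 6 with library size only, 8 with no filter, 9 with a filter at 1 CPM in 3 libraries and 10 with the DESeq2 Wald test. It ran from 2 to 14 when 1 library was left out, and the number higher from 0 to 1 (MRPL19, without control replicate 1). With the replicate number as a block it was 6. Deviations of same-numbered libraries correlated at -0.03, 0.02 and -0.08, and those of differently numbered ones at -0.06 to 0.09. These values gave no sign that the numbers pair the libraries, but they cannot exclude it. On the strand of the gene only, the ETS motif was in 16 members, the YY1 motif in 18, the NRF1 motif in 4 and the GC box in 28. The number of members with a 7mer or 8mer was 12 also over all coding transcripts.

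Some log2 fold changes changed sign, and none of these genes passed the test. MRPL47 was 0.0052 with library size only and 0.0028 with no filter. MRPS25 was 0.0044 with DESeq2 size factors, 0.011 with library size only, 0.010 with no filter and 0.0046 with the DESeq2 Wald test. With 1 library left out, DAP3 ran from -0.023 to 0.063, GARS1 from -0.016 to 0.065, MPV17 from -0.023 to 0.027, MRPL30 from -0.0097 to 0.076, MRPL33 from -0.13 to 0.0045, MRPL47 from -0.062 to 0.086 and MRPL50 from -0.0022 to 0.094. In the same fits, MRPS14 ran from -0.010 to 0.062, MRPS24 from -0.13 to 0.060, MRPS25 from -0.030 to 0.051, MT-ND4 from -0.015 to 0.26, MT-RNR1 from -0.023 to 0.29, PXMP2 from -0.085 to 0.12, SSBP1 from -0.091 to 0.0027 and TFAM from -0.016 to 0.088.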

Other observations

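Of the 88 symbols of the family that are not protein-coding, 79 are annotated as pseudogenes. In these libraries 23 of them had any count and 2 passed the level filter. The highest value in any 1 library was that of MRPS31P4, at 0.73 CPM. Exonic sequence of MRPL12 is shared for 68.2% of its length with another gene of the table, and that of MRPS18A for 47.0%; their log2 fold changes were -0.13 and -0.14, and neither passed the test.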
